A study of Homo sapiens with 4 samples.

Results

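The genes described here are 33 transcriptional targets of p53, chosen by name from a list of direct p53 target genes. The list was drawn up with earlier results of these data known, and it was read for whether the near loss of PHLDA3 mRNA in 2B-OlapR cells was shared by other p53 targets. Of the 33 genes, 32 were among the 22637 genes of the counts table, and EDA2R was not analysed here. RNA-seq was performed on 4 human prostate adenocarcinoma cell lines with 1 library each. LNCaP is castration-sensitive, and its derivative C4-2B is castration-resistant. LN-OlapR and 2B-OlapR were obtained from LNCaP and C4-2B, respectively, by long exposure to rising doses of olaparib, an inhibitor of the DNA repair enzymes PARP1 and PARP2. They had been kept in olaparib, and per the labels the drug was left out for the 48 hours between plating and RNA isolation. The study's methods give a longer time and do not state that the drug was left out. Whether the resistant cells were off the drug, and for how long, is thus uncertain. Each resistant line is 1 derived line, so a difference from its parent cannot be told apart from a difference between 2 cultures.

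p53 is a transcription factor that is held at a low level by the ubiquitin ligase MDM2 and accumulates after DNA damage. It then induces genes that stop the cell cycle, promote DNA repair, trigger apoptosis and, through MDM2, restrain p53 itself. Because PARP inhibitors cause DNA breaks, p53 targets are a common readout of the response of such cells to the drug.

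Levels are given as normalized CPM, which are counts scaled to a library size corrected for composition by the TMM method. The ratios are log2 ratios of the resistant to the parental line, here the 2B pair (2B-OlapR to C4-2B) and the LN pair (LN-OlapR to LNCaP). Intervals are at the 95% level and cover counting error only. With 1 library per line there is no replicate check, no test was run, and "higher" and "lower" compare 2 libraries. A gene was analysed in a pair if its mean over the pair was at least 1 normalized CPM, and a gene counts as called if it differed at least 2-fold. The libraries held 19950537 to 26394267 counts. All 9 markers of prostate luminal cells were found in all 4 libraries, with a summed level of 3244 to 6532 normalized CPM. The lowest sum was that of LNCaP, in which KLK3 was at 53.1 normalized CPM against 1870 to 2685 in the other lines. The defining basal and leukocyte markers KRT5, TP63, PTPRC and CD3E were not analysed here, KRT14 was at 0.112 to 0.557 and CD68 at 0.409 to 5.15 normalized CPM. Of the fibroblast and endothelial markers, COL1A2, DCN, LUM and PECAM1 were not analysed here, COL1A1 was at 7.14 to 16.1 and VWF at 2.61 to 12.2 normalized CPM.

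p53 binds DNA as a tetramer at a pair of half-sites, each with a core of C, then A or T at both next positions, then G, between purines and pyrimidines. Promoter windows of 300 bases, of which 50 follow the transcript start, were taken from RefSeq on build GRCh38.p14 and matched 25 of the 33 genes. Unmatched genes were GADD45A, FBXO22, RRM2B, PHLDA3, TP53INP1, TNFRSF10B, TNFRSF10C and CMBL. The windows were searched for the p53 consensus site, which reads alike on both strands, with a spacer of at most 1 base, the C and G of each core intact and at most 3 mismatches in 20 bases. This search was set after the windows had been looked at. A match was found for 8 of the 25 genes (32%), and for 795 of 27305 genes (2.91%) in the whole table. With at most 2 mismatches, it was found for 4 of the 25 genes and for 0.674% of all genes. A match is a description of the letters and not evidence of binding, and many p53 sites lie outside such windows. The 8 matches are shown because they are the stretches through which these genes resemble each other in sequence. The matching bases are in capitals, with up to 30 bases in all:
DDB2, chr11:47214975-47215004, plus strand: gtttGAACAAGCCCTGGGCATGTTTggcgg
MDM2, chr12:68808918-68808947, plus strand: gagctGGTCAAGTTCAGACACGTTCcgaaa
FAS, chr10:88991304-88991333, plus strand: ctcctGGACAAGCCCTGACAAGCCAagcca
AEN, chr15:88621301-88621330, plus strand: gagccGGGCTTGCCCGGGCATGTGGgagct
FDXR, chr17:74872991-74873020, minus strand: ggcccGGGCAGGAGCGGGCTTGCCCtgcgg
SESN1, chr6:109009013-109009042, minus strand: cgtctGGACAAGTCTCCACAAGTCAgaaat
GDF15, chr19:18386178-18386207, plus strand: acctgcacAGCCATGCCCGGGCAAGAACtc
ABHD4, chr14:22598279-22598308, plus strand: cgccaGGACCTGGCAAGGCTTGTTTactat
DDB2 had the only match with 0 mismatches and a spacer of 1 base. MDM2, FAS and AEN had 2 mismatches, and the other 4 had 3.

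The MDM2 match lies before the second, internal promoter of the gene, which is the one known to respond to p53. The 250 bases before the start are shown in full, from chr12:68808767-68809016 on the plus strand, since MDM2 is both a target and the main inhibitor of p53. Stretches that lack the C or G of a core were outside the search and are not in capitals. The capitals mark the same site:
MDM2: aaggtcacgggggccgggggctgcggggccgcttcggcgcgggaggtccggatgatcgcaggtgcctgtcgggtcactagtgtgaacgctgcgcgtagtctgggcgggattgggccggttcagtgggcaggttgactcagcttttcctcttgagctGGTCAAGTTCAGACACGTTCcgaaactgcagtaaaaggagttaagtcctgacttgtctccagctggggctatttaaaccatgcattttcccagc

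Lower expression of p53 targets in 2B-OlapR was shared by many genes, but the near loss was seen for PHLDA3 alone. In the 2B pair 27 of the 31 genes analysed were lower in the resistant line, against 50% of all analysed genes. With upper quartile scaling 26 of the 31 were lower, as FAS turned above 0. Without PHLDA3, 26 of 30 were lower. Of the genes counted as lower, MDM4, PPM1D, GADD45A, FAS, TIGAR, TP53INP1 and CMBL had intervals that include 0. In the LN pair 26 of 31 were higher and 5 lower, against 50.4% lower over all analysed genes. Of those counted as higher, PPM1D, PLK3, AEN, TIGAR, DRAM1, SPATA18, SUSD6 and FBXO22 had intervals that include 0. TNFRSF10C, a decoy receptor for the death ligand TRAIL, did not reach the minimum in either pair, with 20, 12, 2 and 6 counts in LNCaP, LN-OlapR, C4-2B and 2B-OlapR. The median log2 ratio of the analysed targets was -0.36 in the 2B pair against 0.22 in the LN pair, whereas over all analysed genes it was 0.00 in both. Leaving out PHLDA3 gave medians of -0.36 and 0.21. At least 2-fold lower in 2B-OlapR were 6 of 31 targets, against 5.65% of 15527 analysed genes, and 1 of 31 was at least 2-fold higher, against 4.42%. The 6 include PHLDA3, whose low level was known when the genes were chosen, and without it 5 of 30 were at least 2-fold lower. They also include SPATA18, which passed the minimum through C4-2B only. In the LN pair 2 of 31 were at least 2-fold higher, against 4.64% of 15373 genes, and 0 were 2-fold lower, against 4.83%. At 1.5-fold, 10 targets were lower and 2 higher in the 2B pair, against 13.5% and 10.7% of all genes. The 10 again include PHLDA3 and SPATA18. In the LN pair 8 targets were higher and 0 lower at 1.5-fold, against 10.6% and 10.8% of all genes.

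**Figure D1:**
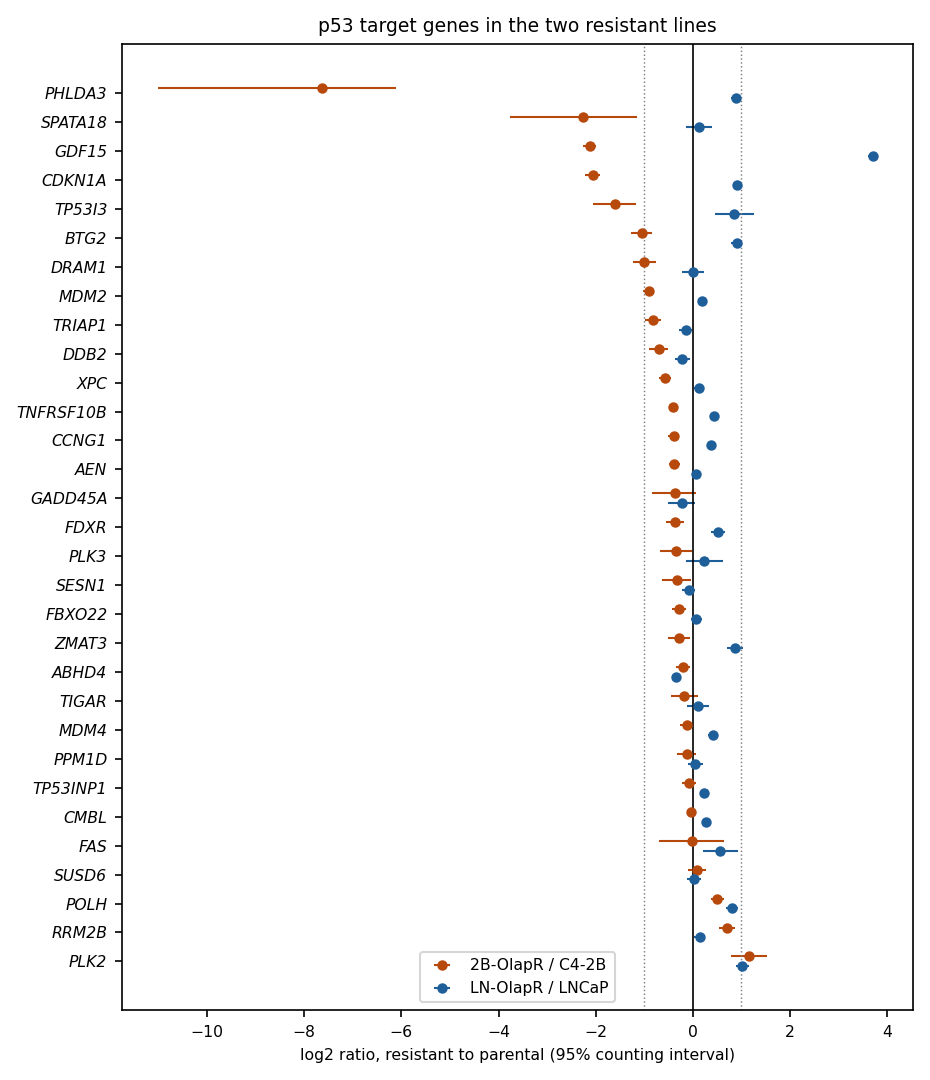
Log2 ratios of both pairs, resistant over parental line, for the 31 p53 target genes analysed in both pairs, ordered by the 2B pair. Points are single-library ratios, bars are 95% counting intervals, and dotted lines mark 2-fold. PHLDA3 lies at -7.64 in the 2B pair, far below the next gene, SPATA18, at -2.26.

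PHLDA3 encodes a small protein with a pleckstrin homology domain that keeps the survival kinase AKT from binding membrane lipids. In GENCODE release 29 on GRCh38 it lies on the minus strand of chromosome 1 from 201464383 to 201469237, and no exon of another analysed gene overlaps its exons. It was at 44.7 normalized CPM in LNCaP and 82.7 in LN-OlapR, and at 24.1 in C4-2B against 0.0965 in 2B-OlapR. The last value rests on 2 counts, against 493 in C4-2B, and is below the 0.145 normalized CPM to which 3 counts correspond in that library. PHLDA3 was thus present in 3 lines and at the detection limit in 1. The log2 ratio was -7.64 (-11.01 to -6.10) in the 2B pair, the 8th lowest of 15527 genes, and 0.89 (0.78 to 0.99) in the LN pair. Of 11798 genes with at least 100 counts in C4-2B, 11 had 3 or fewer counts in 2B-OlapR. PHLDA3 was the only one of the 27 targets with at least 100 counts in C4-2B among them.

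The nearest genes on chromosome 1 were compared to see whether the low level extended over the region. Of the 5 nearest analysed genes on each side, 8 had a log2 ratio above 0 in the 2B pair. Over all analysed genes, 50% were lower in this pair. CSRP1, a LIM domain protein gene 14 kb away, was at 133.0 normalized CPM in C4-2B against 174.0 in 2B-OlapR. On the other side TNNI1, a troponin gene 43 kb away, had 8.31 and 10.2, and LAD1, a basement membrane gene 65 kb away, had 235.0 and 274.8. These genes on both sides of PHLDA3 were slightly higher in 2B-OlapR. NAV1, a neuron navigator gene 70 kb away, was the only neighbour at least 2-fold lower, with 53.2 normalized CPM in C4-2B, 19.4 in 2B-OlapR and a log2 ratio of -1.46 (-1.63 to -1.29). The ratios of TMEM9, INAVA, CSRP1-AS1, KIF21B and IPO9-AS1 were 0.33, 0.32, 0.57, 0.21 and 0.41. The remaining neighbour, RPS10P7, had a ratio of -0.06 and, being a pseudogene, can share reads with other genes.

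**Figure D2:**
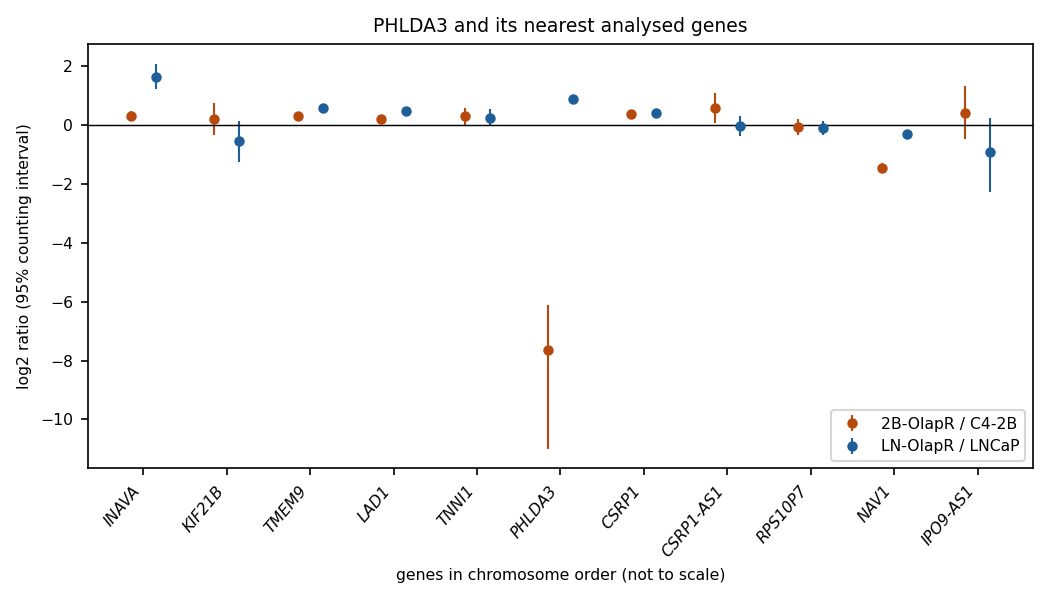
Log2 ratios with 95% counting intervals for PHLDA3 and the 5 nearest analysed genes on each side, in chromosome order and not to scale. In the 2B pair PHLDA3 lies at -7.64 and NAV1 at -1.46, while 8 neighbours lie above 0, of which KIF21B and IPO9-AS1 have intervals that include 0.

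PHLDA3 has 2 relatives that were looked up with it. PHLDA1, which is not a classical p53 target, was lower in both resistant lines, with 47.5 normalized CPM in LNCaP and 8.66 in LN-OlapR, and 71.2 in C4-2B and 15.4 in 2B-OlapR. PHLDA2, an imprinted gene, had 22.4 and 37.3 normalized CPM in the LN lines and 108.9 and 115.4 in the 2B lines. PHLDA1 was thus lower in 2B-OlapR as well, though far from lost, and PHLDA2 was not lower.

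The targets MDM2, MDM4 and PPM1D feed back on p53. MDM2, the ubiquitin ligase that marks p53 for degradation, was at 130.6 normalized CPM in LNCaP and 149.4 in LN-OlapR, and at 88.8 in C4-2B against 47.2 in 2B-OlapR. It was lowest in 2B-OlapR, 1.88-fold below C4-2B, with a log2 ratio of -0.91 (-1.02 to -0.80) against 0.19 (0.13 to 0.26) in the LN pair. MDM4, a relative of MDM2 that blocks the activation domain of p53, had 61.4, 81.9, 45.8 and 42.1 normalized CPM in the same order. PPM1D, a phosphatase that reverses DNA damage signalling to p53, had 24.5, 25.4, 21.9 and 20.2. The 2B pair intervals of MDM4 (-0.26 to 0.01) and PPM1D (-0.32 to 0.07) include 0, so this depth could not show a difference, whereas MDM4 was higher in the LN pair at 0.42 (0.32 to 0.51).

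The next 6 targets act on the cell cycle, and the strongest of these differences was that of CDKN1A. CDKN1A encodes p21, the cyclin-dependent kinase inhibitor through which p53 arrests cells before S phase. It was at 76.1 normalized CPM in LNCaP and 142.2 in LN-OlapR, and at 77.8 in C4-2B against 18.6 in 2B-OlapR. The parental lines were alike, and the resistant lines departed from them in opposite directions, 4.17-fold lower in 2B-OlapR and 1.87-fold higher in LN-OlapR. The log2 ratios were -2.06 (-2.23 to -1.90) and 0.90 (0.82 to 0.98). BTG2, an antiproliferative gene that promotes mRNA deadenylation, had 42.2, 79.0, 25.9 and 12.4 normalized CPM in LNCaP, LN-OlapR, C4-2B and 2B-OlapR. It followed the pattern of CDKN1A with a smaller difference in the 2B pair, -1.05 (-1.28 to -0.84), and the same one in the LN pair, 0.90 (0.80 to 1.01). CCNG1, which encodes cyclin G1, had log2 ratios of -0.40 (-0.51 to -0.29) in the 2B pair against 0.38 (0.31 to 0.45) in the LN pair.

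PLK2, a polo-like kinase of stressed cells, was the one target at least 2-fold higher in 2B-OlapR. It was at 23.8 normalized CPM in LNCaP and 48.3 in LN-OlapR, and at 4.25 in C4-2B against 9.46 in 2B-OlapR. Both resistant lines were above their parents, with log2 ratios of 1.15 (0.78 to 1.53) in the 2B pair against 1.02 (0.88 to 1.16) in the LN pair, but 2B-OlapR stayed below LNCaP. PLK3, another polo-like kinase, had ratios of -0.35 (-0.68 to -0.03) and 0.24 (-0.13 to 0.61). GADD45A, a stress sensor that binds PCNA and cyclin-dependent kinases, had -0.38 (-0.84 to 0.07) and -0.23 (-0.51 to 0.04), neither detectable at this depth.

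**Figure D3:**
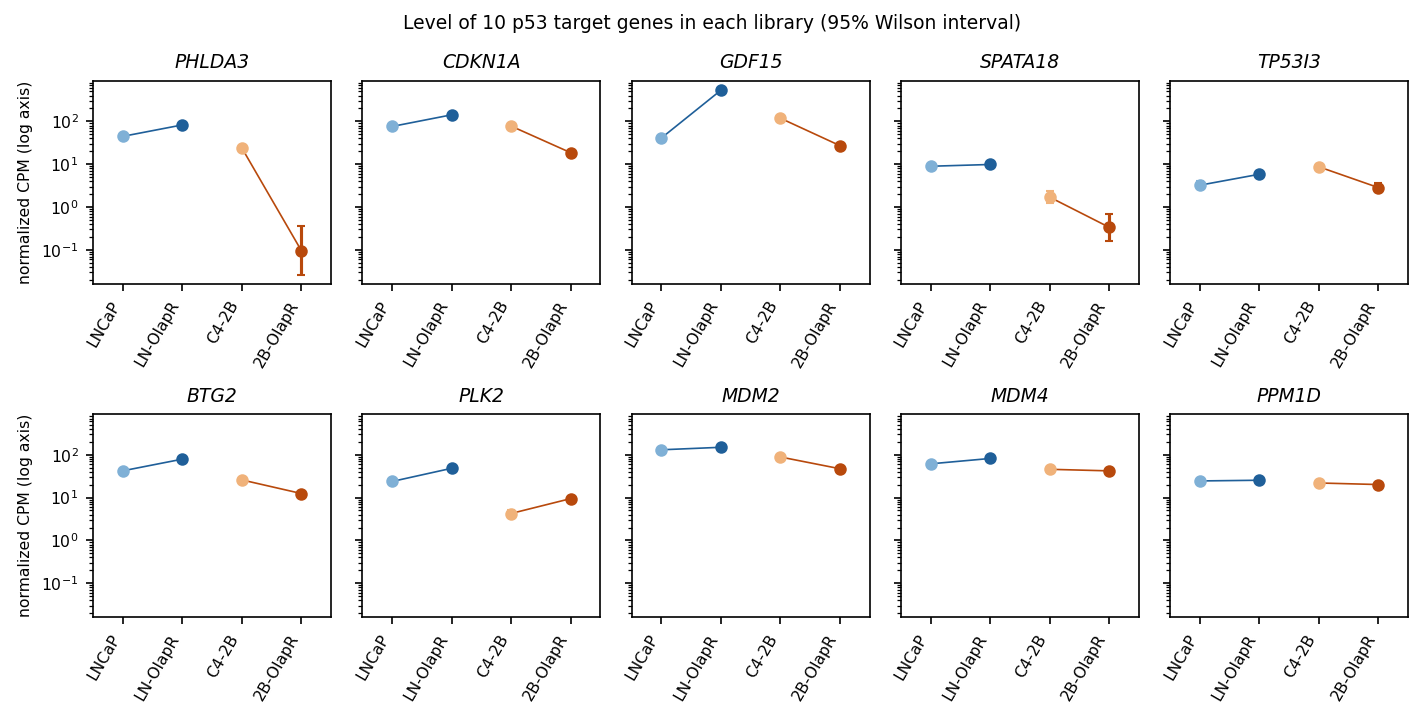
Normalized CPM on a log axis for 10 p53 target genes in each of the 4 libraries, with 95% Wilson intervals from the counts and lines joining each resistant line to its parent. PHLDA3 is at 0.0965 in 2B-OlapR and between 24.1 and 82.7 in the other lines, while CDKN1A, GDF15, TP53I3 and BTG2 lay below C4-2B in 2B-OlapR and above LNCaP in LN-OlapR.

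Among the targets in cell death, TP53I3 came next after PHLDA3. TP53I3, also named PIG3, encodes an oxidoreductase linked to reactive oxygen species. It was at 3.24 normalized CPM in LNCaP and 5.83 in LN-OlapR, and at 8.70 in C4-2B against 2.85 in 2B-OlapR. The level in C4-2B was the highest, and 2B-OlapR was 3.04-fold below it, with a log2 ratio of -1.60 (-2.06 to -1.18) against 0.85 (0.45 to 1.25) in the LN pair. TRIAP1, a small inhibitor of apoptosis, had ratios of -0.82 (-0.99 to -0.65) and -0.15 (-0.28 to -0.01). TNFRSF10B, the TRAIL death receptor DR5 and one of the most highly counted targets, had -0.41 (-0.49 to -0.33) and 0.43 (0.37 to 0.49). It thus differed to a similar extent in opposite directions. FAS, the receptor for FAS ligand, had 4.50 normalized CPM in LNCaP and 6.69 in LN-OlapR, and 1.95 and 1.93 in C4-2B and 2B-OlapR. AEN, a nuclease active in apoptosis, had -0.38 in the 2B pair against 0.07 in the LN pair, and ZMAT3, an RNA-binding zinc finger gene, had -0.28 and 0.86.

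The 4 targets in DNA repair and nucleotide supply did not move as one. DDB2 and XPC encode the damage sensors of global nucleotide excision repair and were both lower in 2B-OlapR. DDB2 had 30.2, 25.9, 26.2 and 16.1 normalized CPM in LNCaP, LN-OlapR, C4-2B and 2B-OlapR, with log2 ratios of -0.70 (-0.91 to -0.51) in the 2B pair against -0.22 (-0.38 to -0.07) in the LN pair. XPC had -0.57 (-0.69 to -0.44) and 0.14 (0.03 to 0.24). By contrast, 2B-OlapR had more POLH and RRM2B mRNA than C4-2B. POLH, the translesion polymerase that copies past ultraviolet lesions, had 30.1, 52.6, 39.8 and 56.5 normalized CPM and ratios of 0.51 (0.38 to 0.64) and 0.81 (0.68 to 0.94). RRM2B, the p53-inducible subunit of ribonucleotide reductase, had 43.1, 47.5, 23.8 and 38.5 normalized CPM and ratios of 0.70 (0.53 to 0.86) and 0.14 (0.02 to 0.26).

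Of the 6 targets in metabolism, autophagy and mitochondria, all were on the lower side in 2B-OlapR. SPATA18, which encodes a protein of mitochondrial quality control also named Mieap, was at 8.97 normalized CPM in LNCaP and 9.86 in LN-OlapR, and at 1.71 in C4-2B against 0.338 in 2B-OlapR. It was the nearest to PHLDA3 in its ratio, -2.26 (-3.76 to -1.15), but from only 35 counts in C4-2B to 7 in 2B-OlapR. It passed the minimum in the 2B pair through its level in C4-2B. DRAM1, a lysosomal regulator of autophagy, had 12.9, 13.0, 20.9 and 10.5 normalized CPM, and at 1.99-fold lower in the 2B pair it fell just short of the 2-fold limit. FDXR, ferredoxin reductase of the mitochondrial matrix, had log2 ratios of -0.36 (-0.55 to -0.18) in the 2B pair against 0.52 (0.37 to 0.66) in the LN pair. SESN1, a sestrin that restrains mTORC1, had -0.33 (-0.63 to -0.03) and -0.08 (-0.22 to 0.06). The ratios of TIGAR, a fructose bisphosphatase, and TP53INP1, an autophagy gene, were -0.18 and -0.08 in the 2B pair and 0.12 and 0.22 in the LN pair, and the intervals of the 2B pair include 0.

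GDF15, a secreted cytokine of the TGF-beta family that cells release under stress, was far higher in LN-OlapR and lower in 2B-OlapR. It was at 40.7 normalized CPM in LNCaP and 531.6 in LN-OlapR, and at 118.9 in C4-2B against 27.2 in 2B-OlapR. LN-OlapR exceeded LNCaP 13.1-fold, and 2B-OlapR was 4.36-fold below C4-2B, with log2 ratios of 3.71 (3.62 to 3.80) and -2.12 (-2.26 to -1.99). In the LN pair it ranked 64 from the top of 15373 genes. The other genes of this group differed less. FBXO22, a ubiquitin ligase subunit, had ratios of -0.28 and 0.07 in the 2B and LN pairs, and ABHD4, a lipid hydrolase, had -0.20 and -0.34. CMBL, a hydrolase, had -0.03 and 0.27, and SUSD6, a membrane protein gene, had 0.08 and 0.03.

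Set side by side, 22 of the 31 targets (71.0%) were lower in 2B-OlapR and higher in LN-OlapR than in the parental line, against 21.2% of the 14602 genes analysed in both pairs. Of the others, 5 were lower in both, 4 were higher in both, and 0 were higher in 2B-OlapR and lower in LN-OlapR. Shares of all genes were not computed for these directions. The 22 include PHLDA3, whose low level in 2B-OlapR was known beforehand. They also include SPATA18, which passed the minimum in the 2B pair through C4-2B only. For MDM4, PPM1D, PLK3, FAS, AEN, TIGAR, TP53INP1, DRAM1, SPATA18, CMBL and FBXO22, the interval of the 2B pair, the LN pair or both includes 0. The pairs share no library. Scaling by total counts moved 5 targets with ratios near 0 in the LN pair (PPM1D, AEN, DRAM1, SUSD6 and FBXO22) below 0, so that 21 of 31 were higher in LN-OlapR and 18 showed the split, against 18.6% of all genes. The 5 genes that differed at least 1.5-fold in opposite directions were PHLDA3, CDKN1A, GDF15, TP53I3 and BTG2. The share of all genes that did so was not computed, and the low level of PHLDA3 was known beforehand. The difference between the pairs was not tested.

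**Figure D4:**
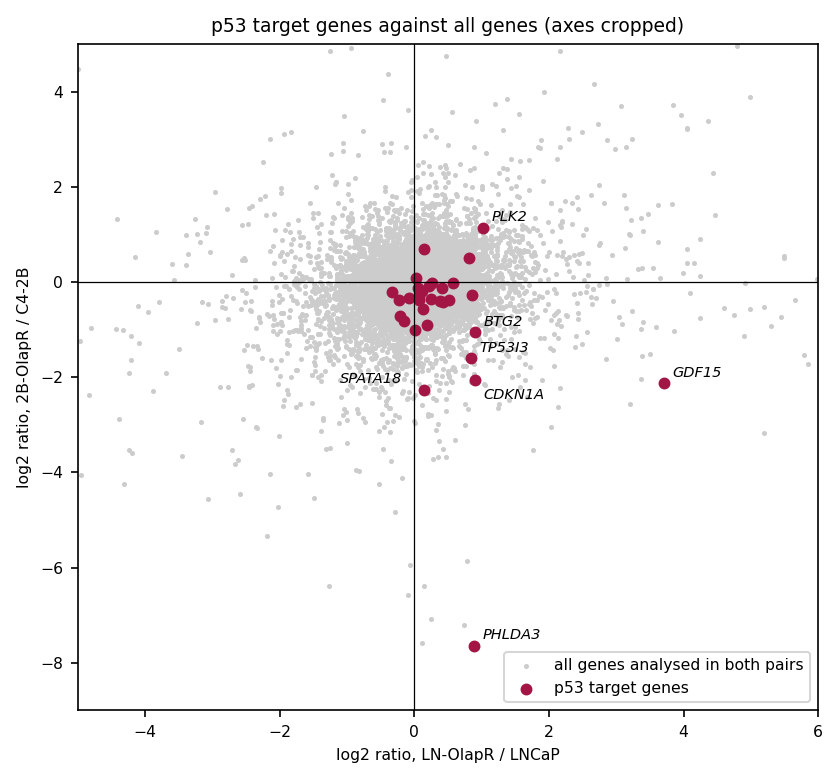
Log2 ratio of the 2B pair against that of the LN pair for the 31 p53 target genes (red) and the 14602 genes analysed in both pairs (grey), with axes cropped. Of the 31 targets, 22 lie in the lower right part, GDF15 at 3.71 and -2.12 and PHLDA3 at 0.89 and -7.64, and PLK2 lies above 1 in both pairs.

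For the 8 genes with a matched p53 site in their window, the log2 ratios of the 2B pair ran from -2.12 for GDF15, -0.91 for MDM2 and -0.70 for DDB2, through -0.38 for AEN, -0.36 for FDXR and -0.33 for SESN1, to -0.20 for ABHD4 and -0.02 for FAS. In the windows of CDKN1A, BTG2, TP53I3 and SPATA18, which were at least 2-fold lower, these letters were not found.

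The parental lines also differed in several targets, which sets the level from which 2B-OlapR departed. This comparison shares LNCaP with the LN pair and C4-2B with the 2B pair. In C4-2B, 7 of 31 targets were at least 2-fold lower than in LNCaP, against 7.18% of 15580 analysed genes, and 2 were at least 2-fold higher, against 8.00%. The lower genes were PLK2, SPATA18, SESN1, TP53INP1, FAS, ABHD4 and GADD45A. SESN1 was at 36.0 normalized CPM in LNCaP against 10.3 in C4-2B, and TP53INP1 had 104.7 and 36.5. GDF15 and TP53I3 were the 2 higher genes, with log2 ratios of 1.54 (1.44 to 1.65) and 1.42 (1.05 to 1.81). CDKN1A did not differ detectably between the parental lines, at 0.03 (-0.06 to 0.13). PHLDA3 was already lower in C4-2B than in LNCaP, at -0.89 (-1.04 to -0.74).

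Other genes of the pathway were taken from 3 lists. Of 18 regulators of p53 stability and activity, such as the kinases ATM, ATR and CHEK2, 0 differed 2-fold in either pair (the same shares of all genes apply as for the 31 targets), and their medians were -0.08 in the 2B pair against -0.11 in the LN pair. The lowest in the 2B pair was TP53BP1, a break-binding protein that steers repair toward end joining, at -0.79. Of 54 further genes reported as p53-induced, 48 were analysed in the 2B pair. Of these, 32 (66.7%) were lower in 2B-OlapR, against 50% of all analysed genes, with a median of -0.14. At least 2-fold lower were 8 of 48, against 5.65% of all genes, and 1 was at least 2-fold higher, against 4.42%. The 8 include SLC12A4, which passed the minimum through C4-2B only. In the LN pair 15 of 49 (30.6%) were lower and 34 higher, against 50.4% lower over all genes, with a median of 0.28. At 2-fold, 0 were higher, against 4.64% of all genes, and 1, KITLG, was lower, against 4.83%. The medians of this list had the same sign as those of the 31 targets in each pair.

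Among those 8 genes, RPS27L, a p53-induced ribosomal protein homologue that may share reads with RPS27, was at 99.8 normalized CPM in LNCaP and 123.3 in LN-OlapR, and at 60.4 in C4-2B against 23.0 in 2B-OlapR. SESN2, a sestrin like SESN1, had 28.5, 45.9, 29.7 and 11.4 normalized CPM. Its log2 ratios were -1.38 (-1.60 to -1.16) in the 2B pair against 0.69 (0.55 to 0.82) in the LN pair, so that it showed the same split as CDKN1A. ORAI3, a calcium channel subunit, had -1.63, SLC12A4, a potassium chloride cotransporter, had -1.60, and APAF1, the scaffold of the apoptosome, had -1.29 in the 2B pair. In the LN pair ORAI3 had 0.32 (0.12 to 0.52) and SLC12A4 had 0.39 (-0.08 to 0.86). APAF1 was lower in the LN pair as well, at -0.41 (-0.75 to -0.08). The other 3, which the naming rule does not cover and which were picked with their values known, were the apoptosis effectors BAX and BBC3 and the receptor kinase EPHA2. BAX was at 35.2 normalized CPM in C4-2B against 17.5 in 2B-OlapR, and BBC3, also named PUMA, had 5.38 and 2.27. The 1 higher gene was CYFIP2, a member of the WAVE actin complex, with a log2 ratio of 1.64 (1.45 to 1.84).

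The third list held 22 cell cycle genes that are repressed when p53 raises p21. In 2B-OlapR 17 of 22 were higher and 5 (22.7%) lower, against 50% lower over all genes, with a median log2 ratio of 0.27. In LN-OlapR 15 of 22 (68.2%) were lower, against 50.4% over all genes, with a median of -0.11. At 2-fold 0 of 22 differed in either pair, against 4.42% higher and 5.65% lower of all genes in the 2B pair and 4.64% and 4.83% in the LN pair. The highest in the 2B pair were CDC25C at 0.97, a mitotic entry phosphatase, and E2F1 at 0.80, a transcription factor of S phase entry. The lowest was CENPF at -0.59, a kinetochore protein. These values stand beside the lower CDKN1A of 2B-OlapR, and their relation to it was not tested.

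**Figure D5:**
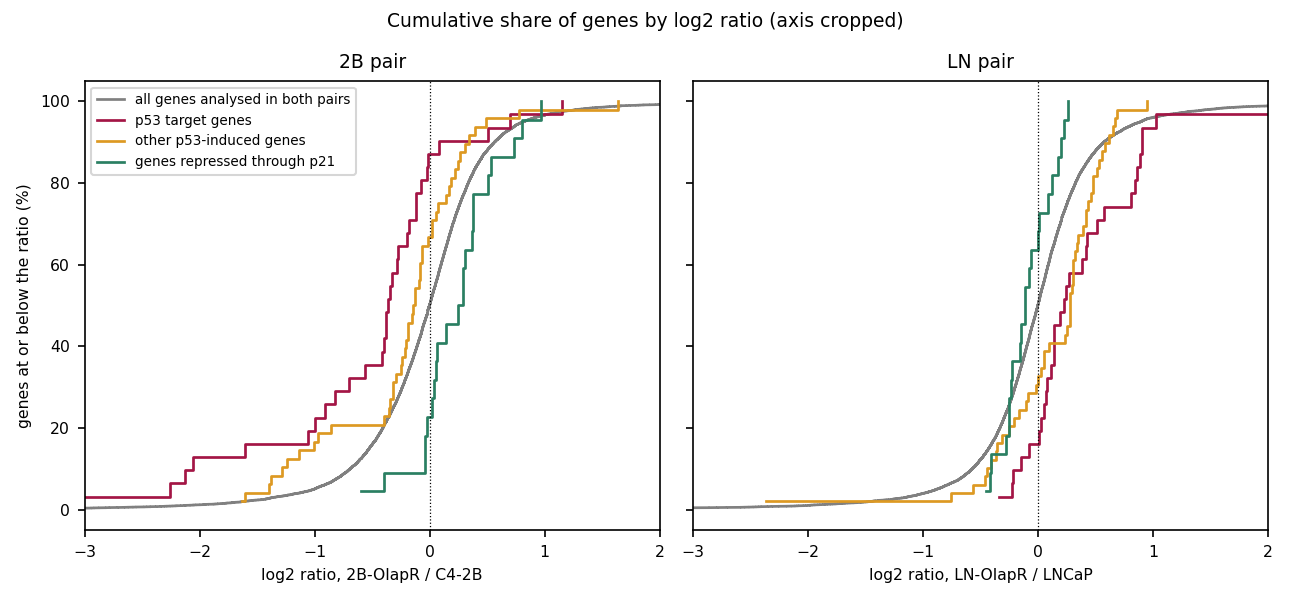
Cumulative share of genes by log2 ratio in the 2B pair (left) and the LN pair (right), with the axis cropped, for the p53 target genes, other p53-induced genes, genes repressed through p21 and all genes analysed in both pairs. At its middle the target curve lies left of all genes in the 2B pair (median -0.36) and right of them in the LN pair (median 0.22), and the middle of the repressed genes lies on the other side in each (medians 0.27 and -0.11).

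Some targets overlap other genes in their exons. In GENCODE release 29, 4.79% of the exon bases of CDKN1A are overlapped by DINOL on the opposite strand, 23.8% of those of XPC by a gene on the opposite strand and 42.6% of those of TIGAR by a gene on its own strand. The libraries were stranded, but whether counting used the strand is not given in the sources used here. No exon overlap with another gene of the table was found for PHLDA3, GDF15, BTG2, SPATA18, PLK2, MDM2, MDM4 or PPM1D.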

How the data were processed

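Stranded mRNA libraries were prepared from 100 ng of total RNA, 1 per cell line. The authors deposited estimated counts per gene that are not scaled between libraries, and 46% of the values are not whole. The submitters' processing notes name STAR, Partek and the build GRCh38, and versions and annotation are not given in the sources used here. The 22637 listed genes sum to at least 10 counts over the 4 libraries. Values were rounded to whole counts. Library sizes were corrected with TMM factors (edgeR 4.0.16, R 4.3.3), and ratios used a pseudocount of 0.5 counts (Python 3.11.15, SciPy 1.17.1). Intervals of ratios are exact binomial intervals conditional on the sum of both counts, and those of levels are Wilson intervals. No model was fitted, because each group has 1 library, and the ratio code was tested on simulated data. Alternatives were scaling by total counts, DESeq2 1.42.0 size factors or upper quartile factors, a pseudocount of 2, no minimum or a minimum of 10 normalized CPM, a 1.5-fold limit and leaving out PHLDA3. All 32 genes found were named. Values in every library were given for PHLDA3, MDM2, MDM4, PPM1D, CDKN1A and genes at least 2-fold changed in the 2B or LN pair, and for other genes where they help. From the further lists, up to 5 genes past 2-fold at each end, and the ends of lists without such genes, were named. The 33 genes and the lists were chosen with earlier results of these data known. Neighbouring genes and their distances were taken from RefSeq on GRCh38.p14.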

Additional observations from a re-analysis of the deposited data

Results flagged for a closer look

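A group of 5 genes differed at least 1.5-fold in opposite directions in the 2 pairs, and with 1 library per line the difference between the pairs was not tested. The share of all genes that did so was not computed, and the low level of PHLDA3 was known beforehand. PHLDA3 had a log2 ratio of -7.64 in the 2B pair against 0.89 in the LN pair. CDKN1A had -2.06 and 0.90. GDF15 had -2.12 and 3.71. TP53I3 had -1.60 and 0.85. BTG2 had -1.05 and 0.90.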

How the results depend on the processing

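Of the log2 ratios of 32 genes, all 32 in the 2B pair stayed within their counting interval with each other scaling and with a pseudocount of 2, and in the LN pair 6 left it under total counts only, each keeping its sign. No gene called at 2-fold changed its sign under these settings. In the 2B pair the targets 2-fold lower or more numbered 6, 7 with total counts, when DRAM1 passed the limit, 4 with a minimum of 10 normalized CPM and 10 at 1.5-fold. The number at least 2-fold higher in the 2B pair was 1, and it was 2 with no minimum, 0 with a minimum of 10 normalized CPM and 2 at 1.5-fold. In the LN pair 2 were at least 2-fold higher, 1 with total counts and 8 at 1.5-fold. Over all alternatives the median of the 2B pair was between -0.41 and -0.34, and that of the LN pair between 0.14 and 0.23. No replicate could be left out. No paired analysis was possible because each group has 1 library and the labels give no replicate numbers. Depth limits PHLDA3 in 2B-OlapR, SPATA18, FAS and TNFRSF10C most.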
